A study of Homo sapiens with 66 samples.

Results

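Immediate early genes are switched on within minutes of a stimulus by factors that are already bound at their promoters, and the 9 described here are FOS, FOSB, FOSL1, JUN, JUNB, EGR1, EGR2, IER2 and IER3. They were chosen by their Ensembl gene identifiers, with the version removed, among the 57820 genes counted in human THP-1 monocytic cells targeted for hnRNPC, ADAR or both. The choice was made with measured values in view, because FOSB stood higher in cells given a gRNA against GFP than in cells given nontarget gRNA, so every value of that contrast is given as a description with no test. IER3 was at or near 0 counts in both experiments and EGR2 lay under the expression filter of the time course, which left 7 members for its tests. By day 5 of the time course 6 of these 7 rose in cells targeted for both genes, with FOSB and JUN the most. There 15.6% of all genes were called. After IFN-alpha 3 rose, where 1.32% were. FOSB passed the filter only through its level in cells targeted for both genes on day 5, so its results there are descriptions.

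FOS, FOSB and FOSL1 encode Fos proteins, which pair with the Jun proteins encoded by JUN and JUNB to form the transcription factor AP-1. EGR1 and EGR2 encode zinc finger factors that take part in the differentiation of monocytes to macrophages, and IER2 encodes a short nuclear protein. IER3 encodes IEX-1, a regulator of cell survival rather than a DNA-binding factor. In monocytic cells such genes answer growth factors, phorbol ester, adhesion, stress and ligands of innate immune receptors, mostly through the MAP kinases and the serum response factor, and their mRNAs decay quickly through AU-rich elements.

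The time course used STING-deficient, Cas9-transgenic THP-1 cells nucleofected with 2 gRNAs each and harvested as whole cells on days 3, 4 and 5, with 3 libraries per group. CTRL cells received the nontarget gRNA NC1 in both positions, hnRNPC-targeted cells received hnRNPC and NC1, ADAR-targeted cells NC1 and ADAR, ADAR+hnRNPC-targeted cells both targeting gRNAs, and GFP-targeted cells GFP and NC1. One more group, on day 4, received NC1 in both positions and IFN-alpha, whose dose the labels do not give, while all others were kept in medium. By the paper's account IFN-alpha was present from day 3 to day 4. A fractionation experiment used WT, Cas9-transgenic THP-1 cells on day 4, with 2 libraries for each of CTRL, ADAR, hnRNPC and ADAR+hnRNPC cells in total RNA and in the digitonin-soluble, cytosol-enriched fraction, and 2 of the digitonin-insoluble, nuclear and mitochondria-enriched fraction from hnRNPC-targeted cells. THP-1 is an established line from a monocytic leukemia, the STING-deficient cells descend from edited THP-1 cells, and gRNA nucleofection leaves a pool in which not every allele need be edited. In such bulk libraries fewer expressing cells and less RNA per cell cannot be told apart.

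The libraries held 95107690 to 152829008 counts in the time course and 49666958 to 73873756 in the fractionation experiment. The summed monocytic markers lay between 558 and 1352 CPM (counts in every 1000000 of a library, with the library total scaled by edgeR's TMM factor) in the time course, with 10 of 12 above 1 CPM at the median, and between 286 and 1119 CPM in the fractionation experiment. Summed lymphoid markers lay between 2.31 and 6.89 CPM in the time course, with CD3D, CD3E, CD3G, CD8A, MS4A1 and CD79A each under 0.1 CPM at the median. HNRNPC mRNA was 317 to 370 CPM in hnRNPC-targeted and 315 to 395 CPM in ADAR+hnRNPC-targeted cells of the time course, against 779 to 832 CPM in CTRL cells, as group means. In the time course ADAR mRNA averaged 424 CPM in CTRL and 370 CPM in ADAR-targeted cells on day 3. It averaged 1322 CPM in ADAR+hnRNPC-targeted cells on day 5, so it does not check the ADAR targeting there. In total RNA of the fractionation experiment HNRNPC mRNA was 910 and 581 CPM in CTRL replicates 1 and 2. It was 433 and 493 CPM with hnRNPC targeted, and 471 and 378 CPM with both genes targeted. Cytosolic HNRNPC mRNA was 1024 and 870 CPM in CTRL, 455 and 571 CPM with hnRNPC targeted and 701 and 651 CPM with both. In total RNA ADAR mRNA was 858 and 869 CPM in CTRL and 564 and 448 CPM with ADAR targeted. With both it was 883 and 694 CPM. The labels number the replicates without saying that they came from separate cultures, and the p-values then measure the spread between these libraries.

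A pair of libraries stood apart from their groups in the members themselves. GFP-targeted replicate 3 of day 5 held the highest FOSB value of all 48 libraries, and IFN-alpha replicate 3 lacked the high FOS, FOSB and EGR1 of the other two, so gene and intron results that rest on either are given with and without it. More widely, replicate 3 was the highest of its group in 15 of 16 groups for JUN and for JUNB, in 11 for FOS and EGR2, and in 10 for FOSB and EGR1, but in 8 for IER2 and 2 for FOSL1.

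The stretches before the transcription starts are printed for FOS, FOSB and EGR1, the members that rose after IFN-alpha, and for JUN, which was not called there. They are the 250 bases before each start in RefSeq's GRCh38.p14 annotation, 5′ to 3′ on the gene's own strand, and entries were at hand for 7 of the 9 members, without FOSL1 and IER3.
FOS (chr14:75278578-75278827, + strand): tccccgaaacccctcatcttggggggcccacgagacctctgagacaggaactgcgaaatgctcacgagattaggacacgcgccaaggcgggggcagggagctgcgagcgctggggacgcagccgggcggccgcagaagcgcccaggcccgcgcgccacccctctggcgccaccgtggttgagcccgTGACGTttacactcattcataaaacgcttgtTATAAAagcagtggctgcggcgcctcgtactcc
FOSB (chr19:45467746-45467995, + strand): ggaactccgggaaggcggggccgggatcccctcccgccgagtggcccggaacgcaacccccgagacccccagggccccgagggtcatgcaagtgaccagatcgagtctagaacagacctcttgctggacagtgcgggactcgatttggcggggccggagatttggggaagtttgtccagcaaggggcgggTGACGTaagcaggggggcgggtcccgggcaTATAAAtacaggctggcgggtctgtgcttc
EGR1 (chr5:138465229-138465478, + strand): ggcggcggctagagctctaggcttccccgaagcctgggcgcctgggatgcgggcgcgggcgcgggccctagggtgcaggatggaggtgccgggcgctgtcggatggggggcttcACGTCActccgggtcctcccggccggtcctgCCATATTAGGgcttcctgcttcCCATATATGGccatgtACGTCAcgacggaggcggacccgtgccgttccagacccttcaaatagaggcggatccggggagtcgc
JUN (chr1:58784048-58784297, - strand): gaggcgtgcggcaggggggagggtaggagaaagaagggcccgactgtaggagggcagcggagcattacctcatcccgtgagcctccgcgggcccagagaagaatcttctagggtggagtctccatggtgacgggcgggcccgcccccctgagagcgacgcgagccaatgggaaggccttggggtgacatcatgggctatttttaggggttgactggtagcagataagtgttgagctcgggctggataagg
Capitals mark the core of the cyclic AMP response element (TGACGT, or ACGTCA when read on the other strand), the TATA box (TATAAA) and the CArG box bound by serum response factor.

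Each motif was searched on both strands. FOS and FOSB carried TGACGT 64 and 60 bases before the start and TATAAA 33 and 30 bases before it. EGR1 carried CArG boxes 105 and 83 bases before the start and ACGTCA 136 and 67 bases before it. EGR2, which is not printed, carried a CArG box 71 bases and ACGTCA 55 bases before the start, and JUNB carried TATAAA 31 bases before it. Over all 35116 RefSeq promoters the same window held a CArG box in 1.16%, TGACGT in 7.1% and TATAAA in 10.7%. The full palindromic element, TGACGT followed by CA, of which TGACGT is a part, and the AP-1 site TGANTCA were in none of the 7 windows, against 1.65% and 6.57% of all promoters. The GC-rich letters GGGCGG, left in lower case, were in FOS, FOSB, JUN and IER2 and in 42.6% of all promoters. A match describes the letters of the window and does not show that a factor bound there. An absence holds only for these 250 bases and the exact letters searched.

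In GRCh37, the build of the deposited tables, FOS lies at chr14:75745529-75748933 on the + strand, FOSL1 at chr11:65659520-65668044 on the - strand, JUN at chr1:59242517-59249720 on the - strand and EGR1 at chr5:137801168-137804992 on the + strand, and none of these overlaps another annotated gene. FOSB at chr19:45971253-45978437 overlaps ERCC1 and JUNB at chr19:12902300-12904129 overlaps HOOK2, each on the opposite strand. IER2 at chr19:13261225-13265725 overlaps 2 long noncoding RNA genes of the opposite strand, and EGR2 at chr10:64571756-64578927 overlaps 1 on its own strand. IER3 at chr6:30710976-30712325 overlaps HCG20 and IER3-AS1. The strand setting of the counting is not given in the sources used here, so for these 5 members reads of the overlapping genes cannot be told apart with certainty.

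Per kilobase of exon, the levels in CTRL cells of day 5 ran from JUNB at 9.82 CPM per kb through FOS at 6.19, IER2 at 3.47, EGR1 at 1.28, JUN at 1.05 and FOSL1 at 1.05 to FOSB at 0.110 and EGR2 at 0.0999 CPM per kb. In ADAR+hnRNPC-targeted cells of the same day JUN stood at 9.93 CPM per kb, behind only JUNB at 31.0 and FOS at 14.8. FOSB reached 1.55 CPM per kb and passed FOSL1 at 1.46 CPM per kb. FOSB rested on 33 to 1181 counts per library over the time course, the fewest of the 7 tested members at its low end, and its folds carried the largest standard errors. It passed the filter, an average log2 CPM of 0.5 over the 48 libraries, at 0.89, but stood at −1.0 over the CTRL libraries alone and at 0.49 without the ADAR+hnRNPC-targeted libraries of day 5. FOSB was therefore tested only because it was high there, and counts and medians over the tested members are descriptions.

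IER3 had 0 counts in 41 of 48 time course libraries and in 9 of 18 fractionation libraries. A count of 0 allows a level of up to 0.0196 CPM in the deepest and 0.0308 CPM in the shallowest library of the time course, taking 3 counts as the limit, for counting error only. The highest IER3 value was 0.129 CPM, from 16 counts, in ADAR+hnRNPC-targeted replicate 1 of day 4. Of the other genes within 100000 bases that were looked up, the median ran from 0.84 CPM for C6orf136 to 94.9 CPM for TUBB, with ATAT1 at 0.968 CPM and NRM at 1.41 CPM. The authors kept uniquely mapped reads alone, and their editing tables list features on alternative chromosome 6 haplotypes, 11 regions rich in editing clusters and 1955 editing sites in the time course, so alternative copies of parts of that chromosome were in the aligned genome. The IER3 level therefore cannot be read as absence, and the part of such copies in it was not tested.

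The comparison of ADAR+hnRNPC-targeted with CTRL cells asks what loss of both proteins does to these genes as the days pass. On day 5 FOS, FOSB, JUN, JUNB, EGR1 and IER2 rose, 6 of the 7 tested members, against 15.6% of all 13187 genes tested that were called in either direction. FOSB passed the filter only through these targeted libraries, so this count and those that follow for day 5 are descriptions. A gene was called where its log2 fold change was at least 1 either way and its adjusted p at most 0.05 by the quasi-likelihood test of edgeR, with p-values adjusted by the method of Benjamini and Hochberg over all genes tested. The 3 targeted libraries stood above all 3 CTRL libraries in 7 of 7 members, against 36.3% of all genes tested, while 40.9% of all genes lay wholly lower. The median log2 change of the 7 was 1.36, against −0.04 over all genes tested.

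FOSB, a Fos protein that acts with a Jun partner, was 0.305, 0.453 and 1.08 CPM in CTRL replicates 1, 2 and 3 of day 5 and 8.19, 8.65 and 8.95 CPM in ADAR+hnRNPC-targeted cells. The lowest targeted library stood above the highest CTRL library, and CTRL replicate 3 was the highest of its group. FOSB rose 13.9-fold, a log2 change of 3.80 (SE 0.70), given with no p-value because these libraries carried it past the filter. FOS was 15.9, 13 and 30.3 CPM in CTRL and 42.2, 43.2 and 55.8 CPM in ADAR+hnRNPC-targeted cells, with replicate 3 the highest on both sides. It rose by a log2 change of 1.25 (SE 0.35, adjusted p = 0.00157). FOSL1, which encodes the Fos protein Fra-1, was 2.05, 2.17 and 1.71 CPM against 2.68, 2.87 and 2.72 CPM, groups that did not overlap but differed by 0.48 on the log2 scale (adjusted p = 0.0457), under the fold required.

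JUN was 3.23, 2.77 and 5.42 CPM in CTRL cells of day 5 and 29.7, 29.5 and 48.8 CPM in ADAR+hnRNPC-targeted cells, which again put replicate 3 highest in both groups. It rose 9.44-fold, a log2 change of 3.24 (SE 0.32, adjusted p = 1.23e-11), and the lowest targeted library was well above the highest CTRL library. JUNB, which forms AP-1 dimers that in general activate less strongly than those of JUN, was 18, 15.6 and 20.3 CPM in CTRL and 52.8, 54.8 and 62.6 CPM in ADAR+hnRNPC-targeted cells. It rose 3.16-fold, by 1.66 on the log2 scale (SE 0.20, adjusted p = 2.41e-09), without overlap.

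EGR1 was 2.82, 1.86 and 7.35 CPM in CTRL and 9.95, 10.7 and 10.3 CPM in ADAR+hnRNPC-targeted cells of day 5. CTRL replicate 3 came close to the targeted libraries. EGR1 rose by a log2 change of 1.36 (SE 0.47, adjusted p = 0.00881), and without CTRL replicate 2 the call was lost, at 1.02 (adjusted p = 0.0706). EGR2 was not tested; it was 0.258, 0.248 and 0.605 CPM in CTRL and 1.59, 1.45 and 1.64 CPM in ADAR+hnRNPC-targeted cells, the highest group of all 16, without overlap. IER2 was 10.4, 8.99 and 12.7 CPM in CTRL and 23.3, 23.7 and 24.8 CPM in ADAR+hnRNPC-targeted cells. The targeted libraries were close together and apart from CTRL, and IER2 rose 2.24-fold, by 1.16 on the log2 scale (SE 0.14, adjusted p = 2.37e-09).

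**Figure D1:**
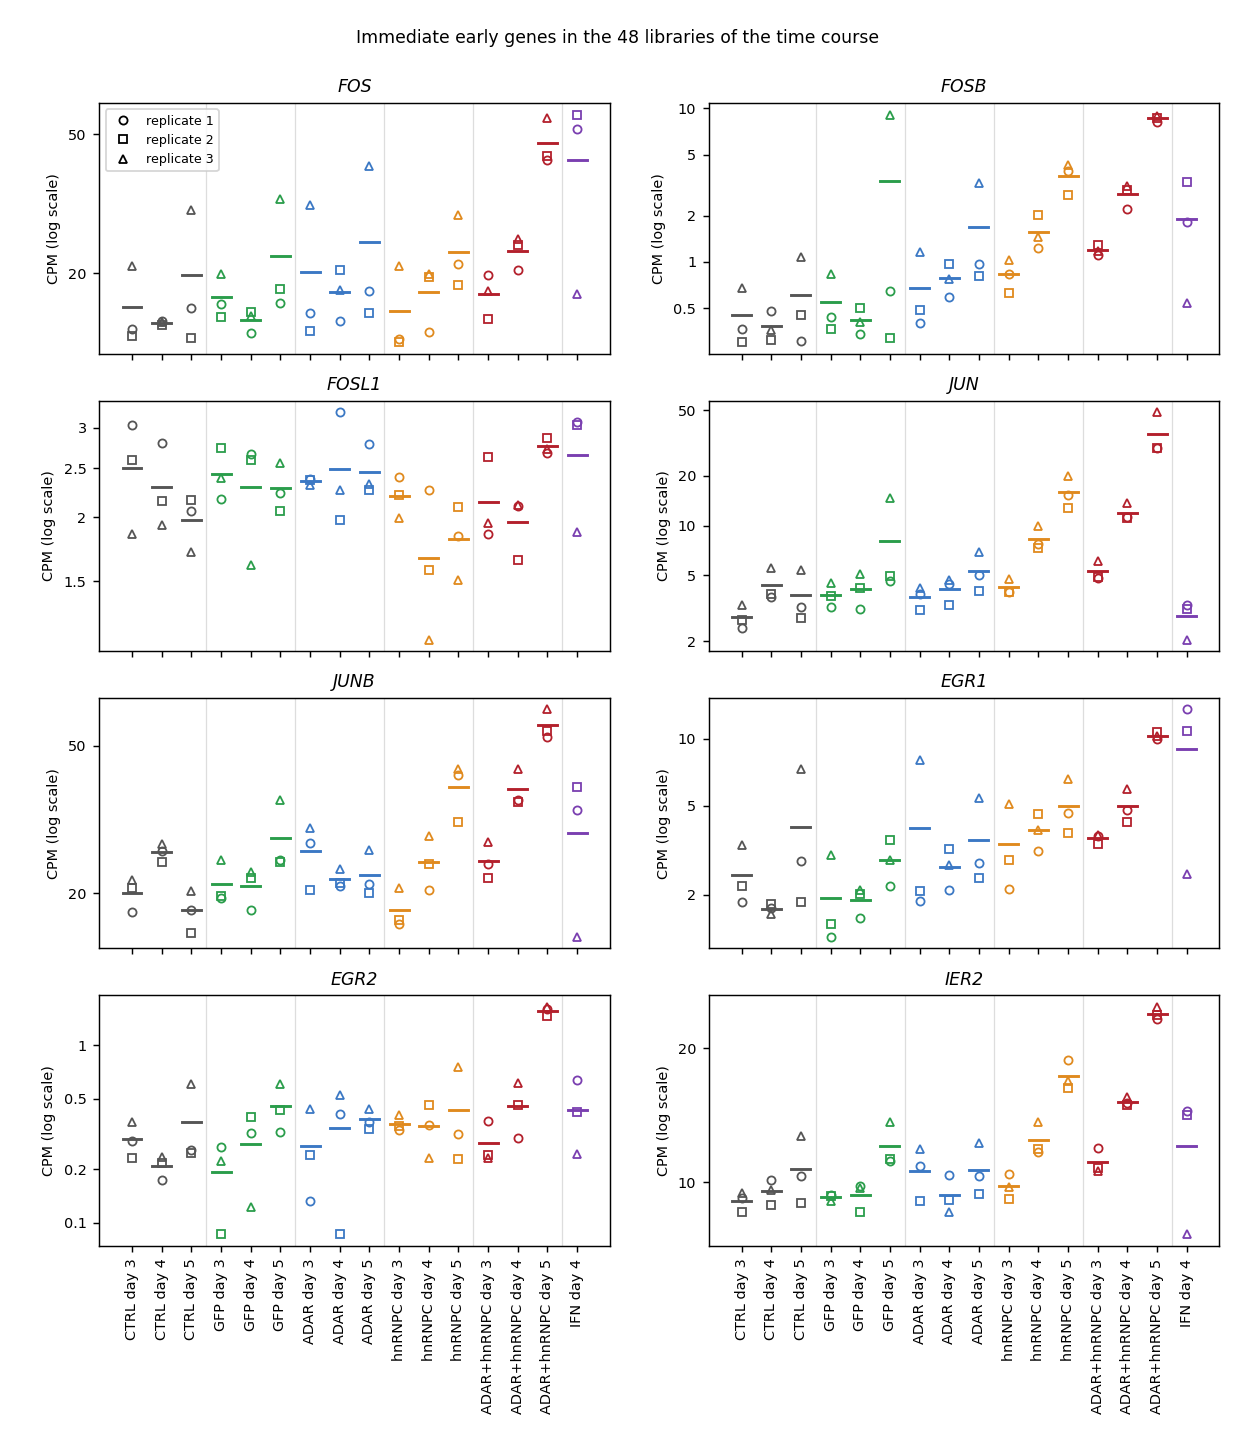
The 8 members with counts in every library, in the 48 libraries of the time course: each symbol is a library (circle, square and triangle for replicates 1, 2 and 3), each bar a group mean, the vertical axis CPM on a log scale and the horizontal axis gRNA group and day. ADAR+hnRNPC-targeted cells of day 5 have the highest group mean in all 8 panels, and the 1 GFP library of day 5 at 9.12 CPM stands among them for FOSB.

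On earlier days fewer members passed the thresholds. On day 3 no member was called, by edgeR, DESeq2 or limma-voom, against 1.17% of all genes, and 2 members had an unadjusted p under 0.05. JUN was then 4.86, 4.90 and 6.13 CPM in ADAR+hnRNPC-targeted cells against 2.41, 2.67 and 3.31 CPM in CTRL cells, which did not overlap, and its log2 difference was 0.92 (adjusted p = 0.0211). FOSB was 1.11, 1.3 and 1.18 CPM against 0.368, 0.301 and 0.678 CPM, a log2 difference of 1.41 (95% interval −0.04 to 2.86, adjusted p = 0.142). On day 4 FOSB, JUN and EGR1 rose, 3 of 7, against 4.69% of all genes.

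FOSB was 2.20, 2.94 and 3.11 CPM in ADAR+hnRNPC-targeted cells of day 4, against 0.478, 0.310 and 0.361 CPM in CTRL cells. The groups lay apart, and FOSB rose by 2.86 on the log2 scale (SE 0.71, adjusted p = 0.000847). JUN was 11.3, 11.1 and 13.6 CPM against 3.70, 3.85 and 5.56 CPM and rose by 1.46 (SE 0.30, adjusted p = 8.02e-05). EGR1 was 4.82, 4.25 and 5.93 CPM against 1.74, 1.82 and 1.64 CPM and rose by 1.53 (SE 0.48, adjusted p = 0.00665). None of the targeted libraries of that day overlapped CTRL for these 3 genes. The share of all genes lying apart on day 4 was not counted, and on day 5 it was 36.3% higher and 40.9% lower. JUNB and IER2 passed the p threshold but not the fold, at log2 differences of 0.56 (adjusted p = 0.0142) and 0.67 (adjusted p = 0.000113).

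Whether the response itself changed between days was tested as the difference of 2 log2 fold changes, called on its adjusted p alone. The response to ADAR+hnRNPC targeting grew from day 4 to day 5 for JUN by 1.78 (adjusted p = 0.000897), for JUNB by 1.10 (adjusted p = 0.00196) and for IER2 by 0.50 (adjusted p = 0.047), 3 of 7 members against 35.4% of all genes. From day 3 to day 5 it grew for JUN by 2.32, for FOSB by 2.39, for JUNB by 1.37 and for IER2 by 0.87, 4 of 7 against 54.5% of all genes. FOSB enters that count as a description. Both shares lay near those of all genes, so such growth was not particular to the members. From day 3 to day 4 none of 7 was called, and none had an unadjusted p under 0.05 or a call by limma-voom, against 14.2% of all genes. IER2 from day 4 to 5 was no longer called in 10 of 16 alternative fits, and FOSB from day 3 to 5 in 8 of 16.

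**Figure D2:**
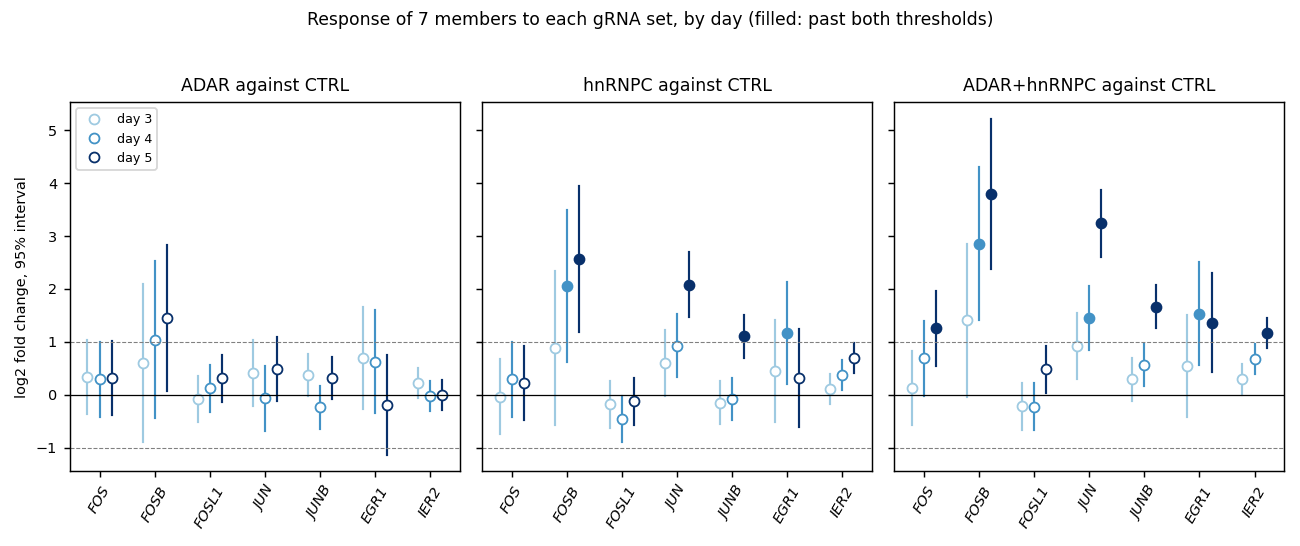
Log2 fold change against CTRL of the same day (vertical axis, with 95% intervals) for the 7 tested members (horizontal axis) in ADAR-targeted, hnRNPC-targeted and ADAR+hnRNPC-targeted cells, with days 3, 4 and 5 in darkening blue and filled points for calls. No point is filled for ADAR, 5 are filled for hnRNPC and 9 for ADAR+hnRNPC, and dashed lines mark a log2 change of 1 either way. The filled FOSB point of ADAR+hnRNPC on day 5 is a description, because those libraries carried FOSB past the filter.

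In cells targeted for hnRNPC alone, FOSB, JUN and JUNB were the members that rose by day 5. On day 3 none of 7 was called by edgeR, DESeq2 or limma-voom and none had an unadjusted p under 0.05, against 1.04% of all genes called. On day 4 FOSB and EGR1 rose, 2 of 7 against 3.21%, and on day 5 FOSB, JUN and JUNB rose, 3 of 7 against 7.7%. The median log2 change of the 7 was 0.11, 0.38 and 0.70 on days 3, 4 and 5, against −0.05, −0.02 and −0.03 over all genes. These comparisons use the CTRL libraries of the same days again.

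JUN was 15.3, 12.9 and 20.1 CPM in hnRNPC-targeted cells of day 5, against the CTRL values above, and rose by 2.08 on the log2 scale (SE 0.30, adjusted p = 2.37e-07). JUNB was 41.6, 31.2 and 43.1 CPM and rose by 1.10 (SE 0.20, adjusted p = 8.82e-06). FOSB was 3.92, 2.74 and 4.30 CPM and rose by 2.56 (SE 0.68, adjusted p = 0.00126). For each of these genes the hnRNPC-targeted libraries lay above all CTRL libraries, and the share of all genes that did so was not counted. IER2, at 18.8, 16.3 and 16.9 CPM, also lay apart but differed by 0.70 (adjusted p = 4.49e-05), under the fold required. FOS differed by 0.22 on day 5 (95% interval −0.48 to 0.92) and EGR1 by 0.32 (95% interval −0.62 to 1.25), with overlapping libraries.

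On day 4 FOSB was 1.23, 2.03 and 1.45 CPM in hnRNPC-targeted cells and rose by 2.05 (SE 0.71, adjusted p = 0.0151), a call lost without CTRL replicate 2 (adjusted p = 0.0536) or without hnRNPC-targeted replicate 2 (adjusted p = 0.0504). EGR1 was 3.15, 4.60 and 3.91 CPM and rose by 1.17 (SE 0.48, adjusted p = 0.0393). The EGR1 call was lost without any one of the 3 CTRL libraries, without hnRNPC-targeted replicate 2 or 3, and by limma-voom. JUN, at 7.72, 7.33 and 9.96 CPM, stood above every CTRL library of day 4 with a log2 difference of 0.93 (adjusted p = 0.00861), short of the fold. The response to hnRNPC targeting grew from day 4 to day 5 for JUN and JUNB, 2 of 7 against 34% of all genes, and from day 3 to day 5 for JUN, JUNB and IER2, 3 of 7 against 48%. Neither share was larger than that of all genes. From day 3 to day 4 no member was called by edgeR or limma-voom, and none had an unadjusted p under 0.05, against 1.99% of all genes. The growth of the JUN response from day 4 to day 5 was lost without CTRL replicate 3 of day 4, CTRL replicate 1 or 2 of day 5, hnRNPC-targeted replicate 1 or 2 of day 4, or hnRNPC-targeted replicate 3 of day 5, with an adjusted p of at most 0.0989.

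With ADAR targeted alone no member was called on any day, by edgeR, DESeq2 or limma-voom, against 0%, 0.0682% and 0.273% of all genes on days 3, 4 and 5. The members with an unadjusted p under 0.05 numbered 0, 0 and 1. The 1 was FOSB on day 5, at 0.968, 0.813 and 3.27 CPM, which overlapped CTRL and gave a log2 difference of 1.45 (95% interval 0.07 to 2.82, adjusted p = 0.163). JUN, at 5.01, 4.00 and 6.96 CPM on day 5, differed by 0.48 (95% interval −0.13 to 1.09), and IER2 by 0.00 (95% interval −0.29 to 0.28). The response to ADAR targeting did not pass the test of a difference between days in any of 7 members by edgeR or limma-voom, with 1, 0 and 0 unadjusted p values under 0.05 from day 3 to 4, 4 to 5 and 3 to 5, against 0.00758%, 0% and 0.0834% of all genes.

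CTRL cells themselves gave no call between days by edgeR, DESeq2 or limma-voom, against 0.19% of all genes from day 3 to 4, 0.167% from day 4 to 5 and 0.667% from day 3 to 5, with 1, 2 and 0 members at an unadjusted p under 0.05. The largest difference was that of EGR1 from day 4 to day 5, which did not overlap, at 1.21 on the log2 scale (95% interval 0.24 to 2.18, adjusted p = 0.13). CTRL replicate 3 of day 5 was high for FOS at 30.3 CPM, for FOSB at 1.08 CPM and for EGR1 at 7.35 CPM.

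The comparison of ADAR+hnRNPC-targeted with singly targeted cells asks what the second target adds. Against ADAR-targeted cells none of 7 members was called on day 3 by edgeR, DESeq2 or limma-voom, with 0 at an unadjusted p under 0.05 and 0.902% of all genes called. On day 4 FOSB and JUN rose, 2 of 7 against 4.03% of all genes, and on day 5 FOSB, JUN, JUNB, EGR1 and IER2, 5 of 7 against 12.3%. The day 5 count includes FOSB and is a description. On day 5 JUN rose by 2.76 (adjusted p = 5.01e-10), EGR1 by 1.55 (adjusted p = 0.00379) and JUNB by 1.34 (adjusted p = 2.26e-07) on the log2 scale. IER2 rose by 1.17 (adjusted p = 2.95e-09). FOSB rose by 2.35, given with no p-value because the ADAR+hnRNPC-targeted libraries carried it past the filter. FOS differed by 0.94 (adjusted p = 0.0154), and the ADAR-targeted replicate 3 at 40.4 CPM was close to the lowest ADAR+hnRNPC-targeted library at 42.2 CPM. The FOSB call of day 4, at 1.81 (adjusted p = 0.0206), was lost without ADAR-targeted replicate 1 (adjusted p = 0.0681) or replicate 3 (adjusted p = 0.0534).

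Against hnRNPC-targeted cells no member was called on day 3 or day 4 by edgeR, DESeq2 or limma-voom, with 1 and 2 at an unadjusted p under 0.05, against 0.0834% and 1.2% of all genes. On day 5 FOS, JUN and EGR1 rose, 3 of 7 against 6.48% of all genes. The ADAR+hnRNPC-targeted libraries lay wholly above the hnRNPC-targeted ones in 7 of 7 members, against 32% of all genes, a count that includes FOSB and is a description. JUN rose by 1.16 (adjusted p = 0.00071), FOS by 1.03 (adjusted p = 0.00964) and EGR1 by 1.05 (adjusted p = 0.0469). These folds were near the threshold. JUN gave 0.88 without ADAR+hnRNPC-targeted replicate 3, FOS gave 0.89 to 0.98 without that library or hnRNPC-targeted replicate 1 or 2, and EGR1 was lost without 5 of the 6 libraries, with an adjusted p of 0.0685 to 0.151. FOSB differed by 1.23, given with no p-value because the ADAR+hnRNPC-targeted libraries carried it past the filter. JUNB differed by 0.55 (adjusted p = 0.0135) and FOSL1 by 0.60 (adjusted p = 0.0158).

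An interaction asks whether the combined response differs from the sum of both single responses on the log2 scale, fitted on the 12 libraries of a day. On day 3 none of 6 members tested was called by edgeR or by limma with sample weights, and 0 had an unadjusted p under 0.05, against 0% of all genes. On day 4 JUNB was called, 1 of 6 against 4.04%, with an interaction of 0.90 (SE 0.16, adjusted p = 0.00889), and on day 5 IER2, 1 of 7 against 48.2%, at 0.45 (SE 0.16, adjusted p = 0.032). JUNB on day 4 was 20.4, 24.0 and 28.5 CPM in hnRNPC-targeted cells, on both sides of CTRL at 26.0, 24.3 and 27.1 CPM. ADAR-targeted cells held 20.9 to 23.2 CPM, under the lowest CTRL library, which enters the interaction. ADAR+hnRNPC-targeted cells held 35.6, 35.3 and 43.3 CPM. The interaction of FOSB on day 5 was −0.23, a description given with no p-value. That of JUN was 0.66 (adjusted p = 0.151) and that of EGR1 1.2 (adjusted p = 0.0827). The IER2 call was lost without CTRL replicate 3, hnRNPC-targeted replicate 2 or ADAR-targeted replicate 1 or 2 of day 5. The number of members called rose to 5 without ADAR-targeted replicate 3. With the replicate number as a block in the fit, JUN was also called on day 4 and FOS, JUN and EGR1 on day 5.

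The GFP-targeted cells were a second control, and the members were chosen on their contrast with CTRL, so no test is given; over all genes 0.0227%, 0% and 0.212% were called on days 3, 4 and 5. FOSB was 0.648, 0.319 and 9.12 CPM in replicates 1, 2 and 3 of day 5, a log2 difference from CTRL of 2.44 that became −0.35 without replicate 3. Replicates 1 and 2 lay among the CTRL libraries and replicate 3 above every library of ADAR+hnRNPC-targeted cells. JUN was 4.62, 4.99 and 14.7 CPM, with a difference of 1.09 that became 0.33 without replicate 3. JUNB was 24.6, 24.3 and 35.7 CPM, above all CTRL libraries, with a difference of 0.65 that became 0.44. EGR1 was not high in replicate 3, at 2.20, 3.53 and 2.85 CPM, and FOS at 16.5, 18.1 and 32.6 CPM was only slightly above CTRL replicate 3. On days 3 and 4 the FOSB difference was 0.29 and 0.14.

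**Figure D3:**
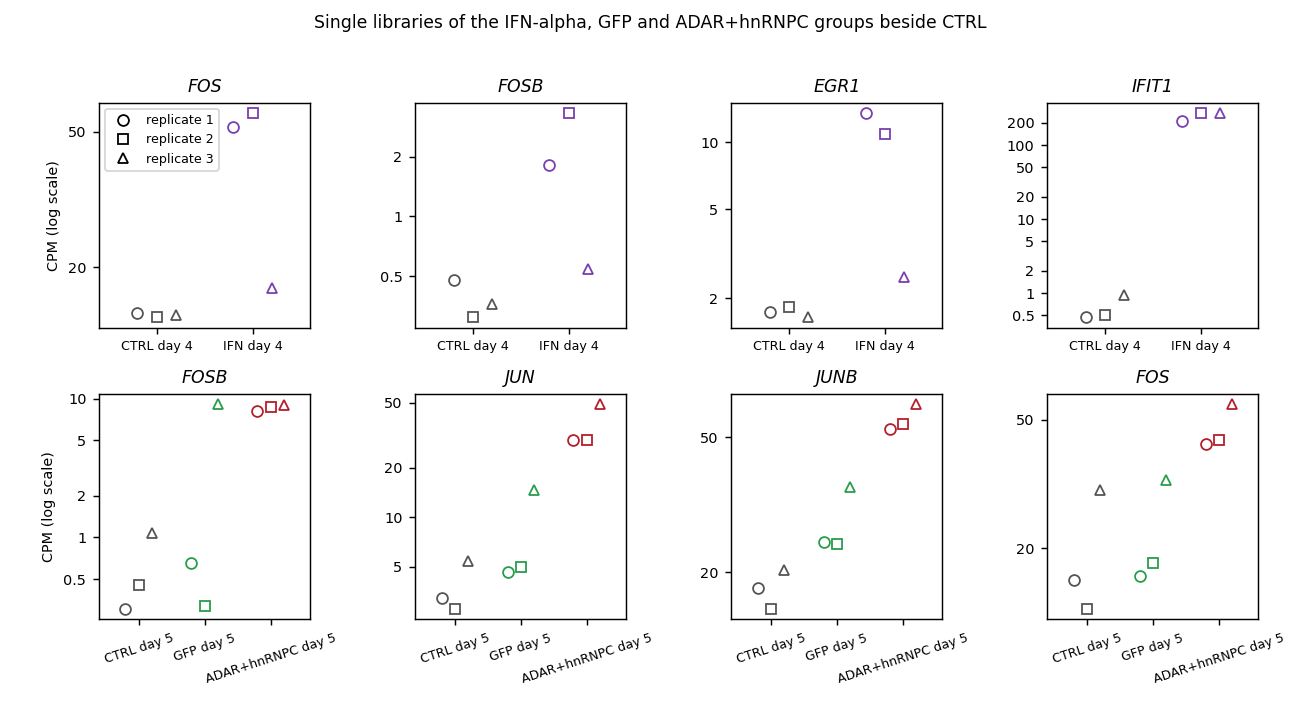
CPM (vertical axes, log scale) of FOS, FOSB, EGR1 and the IFN-induced gene IFIT1 in CTRL and IFN-alpha libraries of day 4 (upper row), and of FOSB, JUN, JUNB and FOS in CTRL, GFP and ADAR+hnRNPC libraries of day 5 (lower row), with a symbol for each replicate. IFN-alpha replicate 3 has 273 CPM of IFIT1 and 17.4 CPM of FOS, and GFP replicate 3 reaches 9.12 CPM of FOSB with 14.7 CPM of JUN.

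Comparisons against GFP-targeted cells rest on libraries that the choice of members used, so their log2 differences are also given with no test. With GFP-targeted cells in place of CTRL, the FOSB difference of hnRNPC-targeted cells on day 5 was 0.12, and 2.91 once GFP replicate 3 was left out. JUN then gave 0.99 and 1.74, and JUNB 0.46 and 0.66. For ADAR+hnRNPC-targeted cells the same replacement gave FOSB 1.36 with replicate 3 and 4.15 without it, JUN 2.15 and 2.91, JUNB 1.01 and 1.21, and IER2 0.99 and 1.09. The log2 difference of JUNB in hnRNPC-targeted cells was thus over 1 against CTRL and under 1 against GFP-targeted cells, with or without that library.

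After IFN-alpha, a cytokine that signals through STAT factors, FOS, FOSB and EGR1 rose on day 4, 3 of 7 against 1.32% of all genes, and JUN was not called. These are levels a day after its addition, and earlier times were not sampled. The comparison shares its CTRL libraries with those of day 4 above. FOS was 51.9, 56.9 and 17.4 CPM with IFN-alpha and 14.6, 14.2 and 14.5 CPM in CTRL cells. Replicates 1 and 2 were far above CTRL and replicate 3 just above it, and FOS rose by 1.54 on the log2 scale (SE 0.35, adjusted p = 0.00156). EGR1 was 13.5, 10.8 and 2.49 CPM with IFN-alpha, showed the same split, and rose by 2.37 (SE 0.49, adjusted p = 0.000514). FOSB was 1.82, 3.32 and 0.545 CPM and rose by 2.31 (SE 0.72, adjusted p = 0.0202). That call was lost without CTRL replicate 2 or 3, without IFN-alpha replicate 2 (1.63, adjusted p = 0.154) and by limma-voom (adjusted p = 0.0681).

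JUN was 3.33, 3.14 and 2.05 CPM with IFN-alpha, below all 3 CTRL libraries, with a log2 difference of −0.63 (95% interval −1.25 to −0.01, adjusted p = 0.154). JUNB was 33.4, 38.5 and 15.2 CPM and overlapped CTRL, at 0.17 (adjusted p = 0.61). Replicate 3 was the lowest of the IFN-alpha libraries for FOS, FOSB, JUN, JUNB, EGR1 and IER2. Among IFN-induced genes, IFIT1 was 209, 268 and 273 CPM, MX1 1147, 1374 and 1335 CPM and ISG15 283, 373 and 242 CPM in replicates 1, 2 and 3, so replicate 3 was the highest for IFIT1, between the others for MX1 and the lowest for ISG15. CTRL cells of day 4 held 0.469 to 0.942 CPM of IFIT1. Without IFN-alpha replicate 3 the log2 changes were 1.91 for FOS (adjusted p = 7.76e-05), 2.75 for FOSB (adjusted p = 0.00873), 2.81 for EGR1 (adjusted p = 2.61e-05) and −0.45 for JUN.

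Reads in introns can come from RNA that is not yet spliced. They can also come from introns kept in mature transcripts, which the authors report for Alu-containing introns in hnRNPC-deficient cells. These sources were not told apart here. The intron table covers 17 introns of 7 members, and 1 of them, intron 1 of FOS, passed the filter of an average log2 CPM of 1. It rose after IFN-alpha, 1 of 1 against 0.844% of 21798 introns tested, by 2.49 on the log2 scale (SE 0.67, adjusted p = 0.0361). The call was lost without any one of the CTRL libraries of day 4 or IFN-alpha replicates 1 or 2, and by limma-voom (2.07, adjusted p = 0.113), while without IFN-alpha replicate 3 it was 2.98 (adjusted p = 0.00658). The same intron differed by 1.40 in ADAR+hnRNPC-targeted cells of day 5 (adjusted p = 0.0654).

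A lower filter of −1.5, chosen after seeing the data, let 79419 introns in and gave 12 calls, all of them higher. For that reason these calls are descriptions. Intron 1 of FOSB (chr19:45971971-45973886 in GRCh37, 1916 bases, with no exon of another gene in it) rose by 1.74 (adjusted p = 0.0373) in hnRNPC-targeted cells on day 4 and 2.16 (adjusted p = 0.00177) on day 5, where 3.56% and 6.89% of introns were called. In ADAR+hnRNPC-targeted cells it rose by 2.88 (adjusted p = 0.000182) on day 4 and 3.30 on day 5, against 4.43% and 14.8%. The day 5 value is given with no p-value because those libraries carried FOSB past the gene filter. After IFN-alpha it rose by 2.18 (adjusted p = 0.0213), against 1.11%, as did introns 1, 2 and 3 of FOS by 2.49, 3.04 and 3.16 and intron 1 of EGR1 by 3.11 (adjusted p = 0.0186). Without IFN-alpha replicate 3 the same introns gave 2.69 for FOSB (adjusted p = 0.000692), 2.98, 3.54 and 3.71 for FOS and 3.66 for EGR1 (adjusted p = 0.00143), and the 5 calls stood. Intron 1 of IER2 rose in hnRNPC-targeted cells by 1.12 and in ADAR+hnRNPC-targeted cells by 1.25 on day 5, and intron 4 of FOSL1 in the latter by 1.36 (adjusted p = 0.000211).

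The GFP-targeted library that stood apart also had the lowest ratio of FOSB intron 1 to gene counts. The median over 48 libraries was 54.5 intron counts per 100 gene counts. ADAR+hnRNPC-targeted cells of day 5 held 49.1, 56.8 and 49.7 per 100, from 461, 615 and 587 intron counts, and hnRNPC-targeted cells 54.5, 61.9 and 52.0 per 100. IFN-alpha libraries held 51.3, 59.0 and 32.8 per 100. GFP-targeted replicate 3 of day 5 held 10.9 per 100, 100 intron counts beside 918 gene counts, the lowest of all 48 and followed by 31.4 in GFP-targeted replicate 1 of day 3. The other GFP-targeted libraries of day 5 held 44.4 and 115 per 100, from 32 and 39 intron counts. The cause of the low ratio was not tested.

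**Figure D4:**
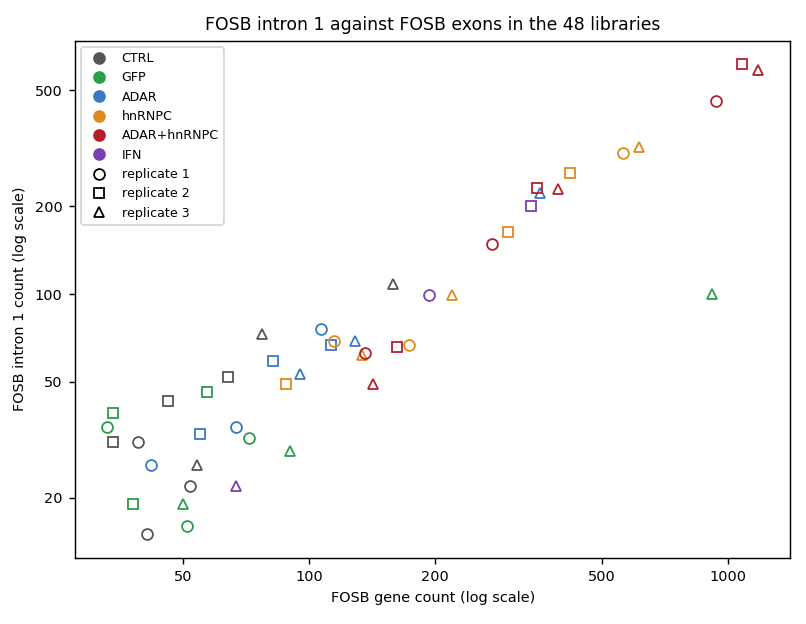
FOSB intron 1 counts (vertical axis, log scale) against FOSB gene counts (horizontal axis, log scale) in the 48 libraries of the time course, colored by gRNA group or IFN-alpha, with a symbol for each replicate. GFP-targeted replicate 3 of day 5, at 918 gene counts and 100 intron counts, lies below the band of the other libraries.

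Over the 16 groups of the time course ADAR+hnRNPC-targeted cells of day 5 had the highest mean of all 8 members with counts. The second place was held by hnRNPC-targeted cells of day 5 for FOSB, JUN, JUNB and IER2, by IFN-alpha for FOS, FOSL1 and EGR1, and by ADAR+hnRNPC-targeted cells of day 4 for EGR2. Most neighbors in these orders did not differ beyond the spread of their libraries, since 15 of 15 neighboring pairs overlapped for FOS, FOSL1 and EGR1, 14 for JUNB and EGR2, 13 for FOSB and JUN and 12 for IER2. For FOSB the pairs apart were ADAR+hnRNPC over hnRNPC on day 5 and on day 3, and for JUN the same pair of groups on day 5 and on day 4.

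In the fractionation experiment, with WT cells, EGR2 passed the filter, at 1.59 to 5.93 CPM over the 18 libraries, beside FOSL1 at 2.43 to 5.12 CPM and JUNB at 19 to 55.2 CPM. FOS was 169 and 47.9 CPM in total RNA of CTRL replicates 1 and 2, EGR1 47.1 and 55.7 CPM and FOSB 5.02 and 10.4 CPM, which spans a wide range for duplicates. The cell line, the experiment and the depth all differed from the time course, so the levels cannot be compared further. In total RNA of day 4 none of 8 tested members was called by edgeR, DESeq2 or limma-voom, against 2.94% of all 13637 genes for ADAR-targeted, 0.733% for hnRNPC-targeted and 4.29% for ADAR+hnRNPC-targeted cells, and 0, 2 and 1 members had an unadjusted p under 0.05.

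FOSB was 23.0 and 10.3 CPM in total RNA of hnRNPC-targeted cells, a log2 difference from CTRL of 1.12 (95% interval −0.27 to 2.5, adjusted p = 0.326). In ADAR+hnRNPC-targeted cells it was 10.1 and 20.2 CPM, a difference of 0.98 (95% interval −0.40 to 2.37). Both groups overlapped CTRL. JUN was 35.9 and 24.0 CPM in CTRL, 53.0 and 37.7 CPM in hnRNPC-targeted and 23.4 and 26.1 CPM in ADAR+hnRNPC-targeted cells, with differences of 0.60 (95% interval 0.14 to 1.06, adjusted p = 0.112) and −0.28 (95% interval −0.74 to 0.19). For JUN and ADAR+hnRNPC that interval ends below the day 4 difference of 1.46 in STING-deficient cells. This contrast between experiments was not tested. CTRL replicate 2 held 581 CPM of HNRNPC mRNA in this total RNA, near the 493 CPM of hnRNPC-targeted replicate 2. The part of this in the differences from CTRL was not tested. IER2 was 17.4 and 16 CPM in ADAR+hnRNPC-targeted cells, under both CTRL libraries at 33.7 and 22.2 CPM, and differed by −0.75 (adjusted p = 0.0202), under the fold required, where the median of all genes was −0.12.

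In cytosol-enriched RNA 1 of 8 members was called in ADAR+hnRNPC-targeted cells, against 7.9% of all genes. This was EGR1, at 120 and 68.9 CPM in CTRL and 53.3 and 36.9 CPM in ADAR+hnRNPC-targeted cells, which fell by 1.07 on the log2 scale (SE 0.38, adjusted p = 0.0336). The call was lost by DESeq2 (adjusted p = 0.0809) and without CTRL replicate 1 (−0.61, adjusted p = 0.317) or either ADAR+hnRNPC-targeted library. No member was called in ADAR-targeted or hnRNPC-targeted cells by edgeR, DESeq2 or limma-voom, with 3 and 1 at an unadjusted p under 0.05, against 4.95% and 0.477% of all genes. IER2 was 39.5 and 26.2 CPM in CTRL and 20.8 and 16.8 CPM in ADAR+hnRNPC-targeted cells, and differed by −0.81 (adjusted p = 0.0106).

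Between the cytosolic and nuclear RNA of hnRNPC-targeted cells 2 of 8 members were called, EGR1 and FOSB, no larger a share than the 30.5% of all genes, and each call was lost on leaving out 1 of several single libraries. EGR1 was 167 and 64.0 CPM in cytosolic, 55.2 and 24.7 CPM in total and 44.4 and 63.1 CPM in nuclear RNA. It was higher in cytosolic than in total RNA by 1.53 on the log2 scale (SE 0.38, adjusted p = 0.0035), 1 of 8 members against 14% of all genes, and higher than in nuclear RNA by 1.10 (SE 0.38, adjusted p = 0.0154). Cytosolic replicate 1 was far above replicate 2, and without it these values were 0.68 (adjusted p = 0.143) and 0.25 (adjusted p = 0.555). The first call was lost also without total replicate 2 (adjusted p = 0.0572), and the second without nuclear replicate 1 (adjusted p = 0.161) and by DESeq2 (adjusted p = 0.105), and by limma-voom it was 0.97, under the fold. FOSB was 8.77 and 14.5 CPM in cytosolic and 18.7 and 49.1 CPM in nuclear RNA, without overlap, and was lower in the cytosol by a log2 change of −1.54 (SE 0.65, adjusted p = 0.0427). The median of all genes was 0.27. The FOSB call was lost without either cytosolic library (adjusted p = 0.198 and 0.0564) or without nuclear replicate 2 (−0.71, adjusted p = 0.435).

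Over the mean of the 4 gRNA groups no member was called between cytosolic and total RNA by edgeR, DESeq2 or limma-voom, against 8.84% of all genes, and 3 had an unadjusted p under 0.05. EGR1 differed by 0.85 (adjusted p = 0.000627), JUN by −0.43 (adjusted p = 0.00213) and FOSL1 by 0.25 (adjusted p = 0.0196), where the median of all genes was 0.17. Within CTRL, ADAR and ADAR+hnRNPC cells no member was called by these tools, against 10.8%, 8.15% and 6.34% of all genes, with 1, 1 and 0 at an unadjusted p under 0.05.

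**Figure D5:**
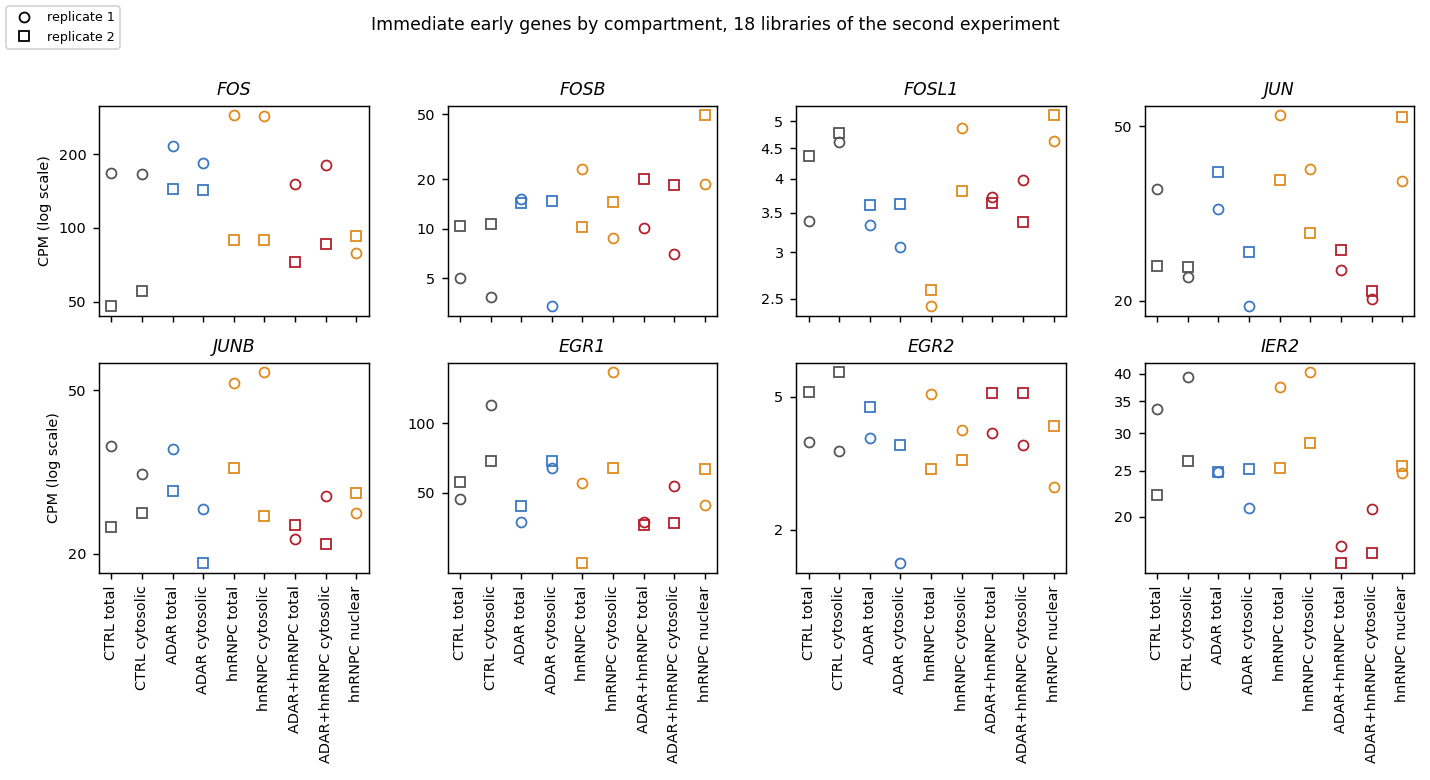
CPM (vertical axes, log scale) of 8 members in the 18 libraries of the fractionation experiment, by gRNA group and RNA fraction (horizontal axis), with a symbol for each replicate. The duplicates of one group differ widely for FOS, 169 and 47.9 CPM in CTRL total RNA, and FOSB is highest in nuclear RNA of hnRNPC-targeted cells, at 18.7 and 49.1 CPM.

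Other genes of the same pathways were counted from lists chosen with earlier results of these data known, so they are a description. Of 20 tested genes in a list of other immediate early genes, 15 rose and 1 fell in ADAR+hnRNPC-targeted cells of day 5, where 15.6% of all genes were called, with a median log2 change of 1.33 against −0.04 over all genes. ATF3, a stress-induced partner of Jun proteins, rose by 5.35, GEM by 3.75, KLF10 by 3.02 and HBEGF, a growth factor of the EGF family, by 2.90, while MYC fell by 1.19. On days 3 and 4 the same list gave 1 and 8 higher, against 1.17% and 4.69% of all genes called, led by ATF3 at 1.24 and 2.63, with SIK1 lower by −1.0 on day 4. In hnRNPC-targeted cells 4 of the 20 rose on day 4, against 3.21% of all genes called, and by day 5 the list gave 9 calls upward and 1 downward, against 7.7%, where HBEGF rose by 2.07 and ATF3 by 1.76. In ADAR-targeted cells of day 5 1 of the 20, IER5L, rose by 1.06, against 0.273% of all genes called, and after IFN-alpha none was, against 1.32%.

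The same 15.6% of all genes called is the background for the next lists on day 5. Of 11 tested genes of other AP-1 and small MAF proteins, 5 rose in ADAR+hnRNPC-targeted cells, among them BATF2 by 6.54, ATF3 by 5.35, BATF by 1.42 and JDP2 by 1.22. BATF2 alone of them rose after IFN-alpha, by 2.19, where 1.32% of all genes were called. Among 8 feedback inhibitors of the MAP kinases, the phosphatase genes DUSP5 and DUSP4 rose in ADAR+hnRNPC-targeted cells of day 5, by 2.41 and 2.03. Of 20 genes of the MAP kinase cascade 1 rose, MAP2K3 by 1.06, and of 8 factors of AU-rich mRNA decay 1 rose, ZFP36 by 1.05. None of 12 factors that bind immediate early promoters, of 2 other EGR and co-repressor genes or of 5 heat shock genes was called there. Of 10 monocytic markers 1 rose, ITGAM by 2.31, and the summed markers were 558 to 633 CPM in ADAR+hnRNPC-targeted cells of day 5 against 729 to 750 CPM in CTRL cells. The part of this in the results was not tested. ATF3 and ZFP36 each stand in a pair of these lists.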

How the data were processed

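RNA-seq libraries (TruSeq Stranded Total RNA, Ribo-Zero Gold) were aligned by the authors to GRCh37 with STAR (2.5.4a in the submitters' processing notes), and unique reads were counted per GENCODE gene with featureCounts. The deposited values are raw counts per gene and, for the time course, per intron of APPRIS-annotated genes outside merged exons. The strand setting is not given in the sources used here. Columns with no sample numbered 0.

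Here CPM are counts in every 1000000 of the total count times its TMM factor. Genes with an average log2 CPM of at least 0.5 (introns 1) were fitted with edgeR 4.0.16 in R 4.3.3, quasi-likelihood test with Benjamini-Hochberg adjustment over all of them, in one fit of 48 libraries for the time course and one of 18 for the fractionation experiment. Interactions used the 12 libraries of a day. Calls needed both an adjusted p no higher than 0.05 and a log2 fold change no smaller than 1 either way, but day differences and interactions the p alone. DESeq2 1.42.0, limma 3.58.1, RLE scaling, no filter, GFP-targeted cells as control and each library left out were the alternatives. Scripts were tested on simulated data.

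All 9 members are named, of other lists at most 4 called genes per direction and comparison, and 3 genes most alike per member. Members and lists were chosen with earlier results of these data known. Coordinates and exon lengths came from GENCODE on GRCh37, and promoters from RefSeq. Same-numbered libraries deviated together with every correlation over 0.1 in 10 of 22 time course comparisons and 9 of 11 fractionation comparisons, the latter with 2 pairs each. The study's text speaks of independent experiments, and the labels give numbers only.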

Additional observations from a re-analysis of the deposited data

Results flagged for a closer look

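Each of these results was singled out because an effect differed between days or between gRNA combinations by edgeR's test of the difference itself; CTRL libraries are shared among them. In hnRNPC-targeted cells the log2 response of JUN was larger on day 5 than on day 4 by 1.15 (SE 0.42, adjusted p = 0.0308) and than on day 3 by 1.47 (SE 0.43, adjusted p = 0.00453). The response of JUNB was larger on day 5 than on day 4 by 1.19 (SE 0.28, adjusted p = 0.00125) and than on day 3 by 1.26 (SE 0.28, adjusted p = 0.000365), and that of IER2 on day 5 than on day 3 by 0.59 (SE 0.20, adjusted p = 0.0136). The IER2 difference was lost without CTRL replicate 2 of day 5 (adjusted p = 0.0569), and the JUN difference from day 4 in 6 of 16 alternative fits. Over all genes 34% passed this test from day 4 to 5 and 48% from day 3 to 5, so such growth was not particular to the members.

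In ADAR+hnRNPC-targeted cells the response on day 5 exceeded that on day 4 by 1.78 for JUN (SE 0.42, adjusted p = 0.000897), by 1.10 for JUNB (SE 0.28, adjusted p = 0.00196) and by 0.50 for IER2 (SE 0.20, adjusted p = 0.047). It exceeded that on day 3 by 2.32 for JUN (SE 0.43, adjusted p = 1.71e-05), by 1.37 for JUNB (SE 0.28, adjusted p = 7.7e-05) and by 0.87 for IER2 (SE 0.20, adjusted p = 0.000296). For FOSB the difference was 2.39 (SE 0.98), with no p-value because the day 5 libraries carried it past the filter. Over all genes 35.4% passed this test from day 4 to 5 and 54.5% from day 3 to 5, near the shares of the members. IER2 from day 4 was no longer called in 10 of 16 alternative fits, and FOSB from day 3 in 8 of 16.

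For JUNB on day 4 the interaction between both targets was 0.90 (SE 0.16, adjusted p = 0.00889), and 0.60 with GFP-targeted cells as control, which is given with no test because the members were chosen on the GFP contrast. It was 0.45 for IER2 on day 5 (SE 0.16, adjusted p = 0.032), a call lost in 4 of 17 alternative fits. Over all genes the interaction was called for 4.04% on day 4 and 48.2% on day 5.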

How the results depend on the processing

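No member result changed direction past the thresholds under any alternative. Leaving out each library in turn, the counts of member calls ranged from 0 to 0 for ADAR (0 with all libraries), 3 to 5 for hnRNPC (5), 8 to 10 for ADAR+hnRNPC (9), 2 to 3 for IFN-alpha (3), 0 to 0 for CTRL between days (0), 7 to 11 for double against single targeting (10), 1 to 5 for interactions (2), 9 to 14 for day differences (12), and, in the fractionation experiment, 0 to 0 for total RNA (0), 0 to 2 for cytosolic RNA (1), 0 to 2 for cytosolic against total (1) and 0 to 3 for cytosolic against nuclear RNA (2), and 0 to 2 for introns (1). Without CTRL replicate 2 of day 4 the hnRNPC count was 3. With no low-count filter the ADAR count became 2 (FOSB on days 4 and 5), CTRL between days 1 (EGR1), interactions 7 and total RNA 1 (FOSB). With GFP-targeted cells as control no count of calls is given, as the members were chosen on those libraries. Leaving out GFP replicate 3 of day 5 was chosen after seeing the data. DESeq2 gave 0 for cytosolic RNA and 1 for cytosolic against nuclear RNA, limma-voom gave 1 for the latter, and limma with sample weights gave 4 interactions. Introns became 2 with intron totals as library size and 12 with the lower filter, with or without IFN-alpha replicate 3. RLE in place of TMM scaling shifted the median of all genes by −0.06 to 0.02 and changed 1 of 313 single results.

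With the replicate block, interactions became 6 and introns 2. Whether the 4 groups of an interaction share more than a number is not settled. The lowest correlations among the pairs compared, 0.0612 on day 4 and 0.0445 on day 5, were both between ADAR+hnRNPC and hnRNPC cells. On day 4 the lowest against CTRL was 0.329 for ADAR, 0.121 for hnRNPC and 0.369 for ADAR+hnRNPC cells. The day 5 values were 0.249, 0.272 and 0.0662. For interactions the block gave calls for JUN on day 4 (0.61, adjusted p = 0.0107) and FOS on day 5 (0.75, adjusted p = 0.0049). JUN (0.62, adjusted p = 0.000344) and EGR1 (1.22, adjusted p = 0.00719) were also called on day 5. It also called FOSB in ADAR+hnRNPC against hnRNPC cells of day 5 (1.25), a description because the former libraries carried FOSB past the filter. In all, 9 of 342 single results moved past a threshold. No call was lost under the block, and in comparisons of 2 groups where every pair's correlation was over 0.1 it changed no member call. Leaving out the 16 libraries numbered 3, also chosen after seeing the data, made 11 of 196 single results calls and lost none, FOSB on day 3 among them, at 1.13 (adjusted p = 0.0306) for hnRNPC and 1.86 (adjusted p = 0.00106) for ADAR+hnRNPC. Leaving out each library gave the same verdict for 2353 of 2448 single results, lost 66 and added 26. FOSB, at 33 counts in its lowest library, and IER3, near 0, are the members whose values depth limits.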

Other observations

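Over the 16 group means of the time course the genes most like FOS were SIGLEC1, IRF7 and OAS1, with Pearson's r of 0.967, 0.961 and 0.958, and most like EGR1 were MOV10, SEPTIN4 and IRF9, at 0.929, 0.913 and 0.911. FOSB was most like LINC00265, ALAS1 and FGR (0.975, 0.972 and 0.956), and JUN like UBE2H, ETS1 and SQSTM1 (0.985, 0.979 and 0.975). JUNB was most like RAB24, SPHK1 and IP6K1 (0.961, 0.959 and 0.959), IER2 like IL17RE, HIVEP2 and ALAS1 (0.986, 0.976 and 0.973), and FOSL1 like DGLUCY, LRSAM1 and BLOC1S3 (0.916, 0.897 and 0.897). The groups share CTRL gRNA, days and replicate numbers, and these values only describe the 16 groups.

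Among the members, FOS and EGR1 varied together over the 16 group means (r = 0.895) and also over the deviations of the 48 libraries from their group means (0.88). FOS and JUNB had 0.751 over group means and 0.847 over deviations. FOSB and IER2 had 0.946 over group means but 0.601 over deviations, and JUN and IER2 0.937 and 0.577. FOSL1 had between −0.18 and 0.36 with the other members over group means. The deviations share the library, its depth and its replicate number.

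No region rich in editing clusters, of 2875 in the time course and 2794 in the fractionation experiment, and no listed editing site, of 475962 and 318767, lay within a member.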
